A study of Mus musculus with 35 samples.

Results

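Megakaryocytes are the large bone marrow cells that shed platelets, and both carry a small set of genes used as their markers. The values of 9 such genes were followed here in mouse bone marrow progenitors that expressed the leukaemia fusion protein NUP98-HOXA9 or changed versions of it. The genes were taken from the count table by symbol: Pf4, Ppbp, Itga2b, Itgb3, Gp1ba, Gp1bb, Gp5, Gp9 and Vwf. All 9 were among the 49671 genes counted and all 9 were among the 17166 that passed the filter on low counts.

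The RNA came from lineage-negative haematopoietic stem and progenitor cells of C57Bl/6 bone marrow. Cells received a lentivirus, were sorted for fluorescent reporters, and then grew for a week in semi-solid Methocult medium. Cells with the empty vector were sorted for mCherry, those with a fusion for mCherry and mEGFP, so the sort differed in every comparison with Empty. The medium held myeloid and erythroid growth factors. It also held 10 ng/mL GM-CSF, a cytokine that drives granulocyte and macrophage output. There were 35 libraries in 7 groups of 5. Empty carried the vector alone, without a fusion. G-NHX9 carried the GFP-tagged fusion. In G-NHX9-8FA some phenylalanines of the NUP98 part were replaced by alanine, and in G-NHX9-21FGAA many of its FG pairs became AA. G-NHX9-midi had a shortened NUP98 part, G-NHX9-midi-21FGAA joined that shortening with the FG changes, and G-NHX9-DDNA carried a homeodomain changed to weaken DNA binding. Mice were 8 weeks old for 32 libraries, while the labels gave 9 weeks for Empty replicate 4, 10 weeks for Empty replicate 5 and 11 weeks for G-NHX9 replicate 1. The methods describe parallel isolations of cells and triplicate transductions with each virus, whereas each group has 5 libraries. Neither they nor the labels tie a replicate number to a mouse, a transduction or a day, so p-values measure the spread between these libraries, which may in part be technical. The sort selected reporter-positive cells and no lineage, so every library is a mixture of colony cells.

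In the megakaryocyte lineage, GATA1 with its cofactor FOG1 and ETS factors such as FLI1 switch on the platelet genes. Pf4 and Ppbp are chemokines stored in the alpha granules of platelets. Itga2b and Itgb3 encode the subunits of integrin αIIbβ3, the platelet receptor for fibrinogen. Gp1ba, Gp1bb, Gp9 and Gp5 encode the GPIb-IX-V complex, which catches platelets on von Willebrand factor, and Vwf encodes that ligand. Itga2b (CD41) is also found on early blood progenitors, Itgb3 on other myeloid cells, and Vwf in endothelial cells.

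Total counts ran from 31559914 to 75810659 per library. A gene's count per library ran from 8 to 44770 over the 9 genes, and their share of all counts from 0.0214% to 0.326%. Levels below are CPM, counts scaled to a common library total, on library sizes scaled by TMM, a factor that sets the bulk of genes equal between libraries. Reads assigned to Hoxa9, the targeted part of the fusion, were at 0.975 ± 0.221 CPM (SD, n = 5) in Empty and 96.6 ± 14.4 in G-NHX9. They were also above Empty in G-NHX9-8FA (33.8), G-NHX9-midi (34.6) and G-NHX9-DDNA (18.9), but only 3.28 in G-NHX9-21FGAA and 1.12 in G-NHX9-midi-21FGAA, so they do not check the last 2 labels. The counts cannot tell reads of the fusion from reads of the mouse gene.

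The genes lie on 4 chromosomes of GRCm38 (GENCODE M21). Ppbp (chr5:90768518-90770063, plus strand) and Pf4 (chr5:90772435-90773383, plus strand) are neighbours. Gp1ba (chr11:70639122-70642036, plus), Itga2b (chr11:102453297-102470122, minus) and Itgb3 (chr11:104608000-104670476, plus) share a chromosome, as do Gp1bb (chr16:18620317-18622403, minus) with Gp5 (chr16:30307685-30310779, minus) and Gp9 (chr6:87778072-87779768, plus) with Vwf (chr6:125546774-125686679, plus). Gp1bb is the one with uncertain counts, because 91.1% of its exon bases also belong to exons of Sept5 and 41.5% to exons of Gm49601, both on its own strand. For Gp1bb and Gp5 the table carries another version of the gene identifier than GENCODE M21.

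RefSeq promoters (GRCm38.p6, from 250 bases before to 50 bases after the start site) were at hand for 7 of the genes. They were searched on both strands for GATAA, the core read by GATA factors, and for GGAAG, a core read by many ETS factors. These words do not overlap each other in the stretches shown. GGAAG was in 7 of 7 promoters and in 71.4% of all 32851 promoters, so its presence sets nothing apart. GATAA was in 4 of 7 (Pf4, Gp1ba, Gp5 and Gp9) against 25.4% of all promoters, and those 4 held both words, as did 17.2% of all. A match is a description of letters and shows no binding. The 120 bases before the start site are printed for 3 genes of the GPIb-IX-V complex, where both words stand close together, and for Itga2b and Ppbp, where only GGAAG was found. Matches to either word, on either strand (TTATC and CTTCC on the other), are in capitals.

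Gp1ba, chr11:70639002-70639121, plus strand: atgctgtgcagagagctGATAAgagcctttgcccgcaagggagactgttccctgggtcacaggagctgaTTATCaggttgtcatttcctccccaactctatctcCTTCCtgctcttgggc
Gp5, chr16:30310782-30310901, minus strand: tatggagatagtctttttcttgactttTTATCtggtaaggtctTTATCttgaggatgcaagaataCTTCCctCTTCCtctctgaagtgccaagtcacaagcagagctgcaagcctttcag
Gp9, chr6:87777950-87778069, plus strand: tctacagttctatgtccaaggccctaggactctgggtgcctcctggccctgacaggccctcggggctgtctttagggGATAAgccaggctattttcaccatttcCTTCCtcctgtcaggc
Itga2b, chr11:102469884-102470003, minus strand: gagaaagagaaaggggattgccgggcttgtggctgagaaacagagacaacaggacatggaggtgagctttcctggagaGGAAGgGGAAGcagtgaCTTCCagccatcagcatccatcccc
Ppbp, chr5:90768398-90768517, plus strand: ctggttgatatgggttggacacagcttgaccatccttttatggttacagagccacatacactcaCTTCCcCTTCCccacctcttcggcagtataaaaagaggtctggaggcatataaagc

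The 9 genes followed nearly the same order over the groups. All 9 were lowest in G-NHX9-midi, next lowest in G-NHX9-8FA and then in G-NHX9, and the other 4 groups lay above. For 7 genes G-NHX9-21FGAA had the highest mean. The exceptions were Gp1ba, highest in G-NHX9-DDNA, and Vwf, highest in Empty. Summed over the 9 genes, the level was 1610 ± 362 CPM in Empty, 872 ± 367 in G-NHX9, 520 ± 31.4 in G-NHX9-8FA and 317 ± 70.5 in G-NHX9-midi. It was 2270 ± 622 in G-NHX9-21FGAA, 1580 ± 425 in G-NHX9-midi-21FGAA and 1900 ± 556 in G-NHX9-DDNA. From the lowest to the highest group mean the range was 32.6-fold for Gp1ba, 24.6-fold for Ppbp and 21.4-fold for Gp9, but only 5.78-fold for Itgb3, 5.59-fold for Itga2b and 4.13-fold for Vwf. In bulk RNA, fewer cells of the lineage and less RNA per cell cannot be told apart.

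**Figure D1:**
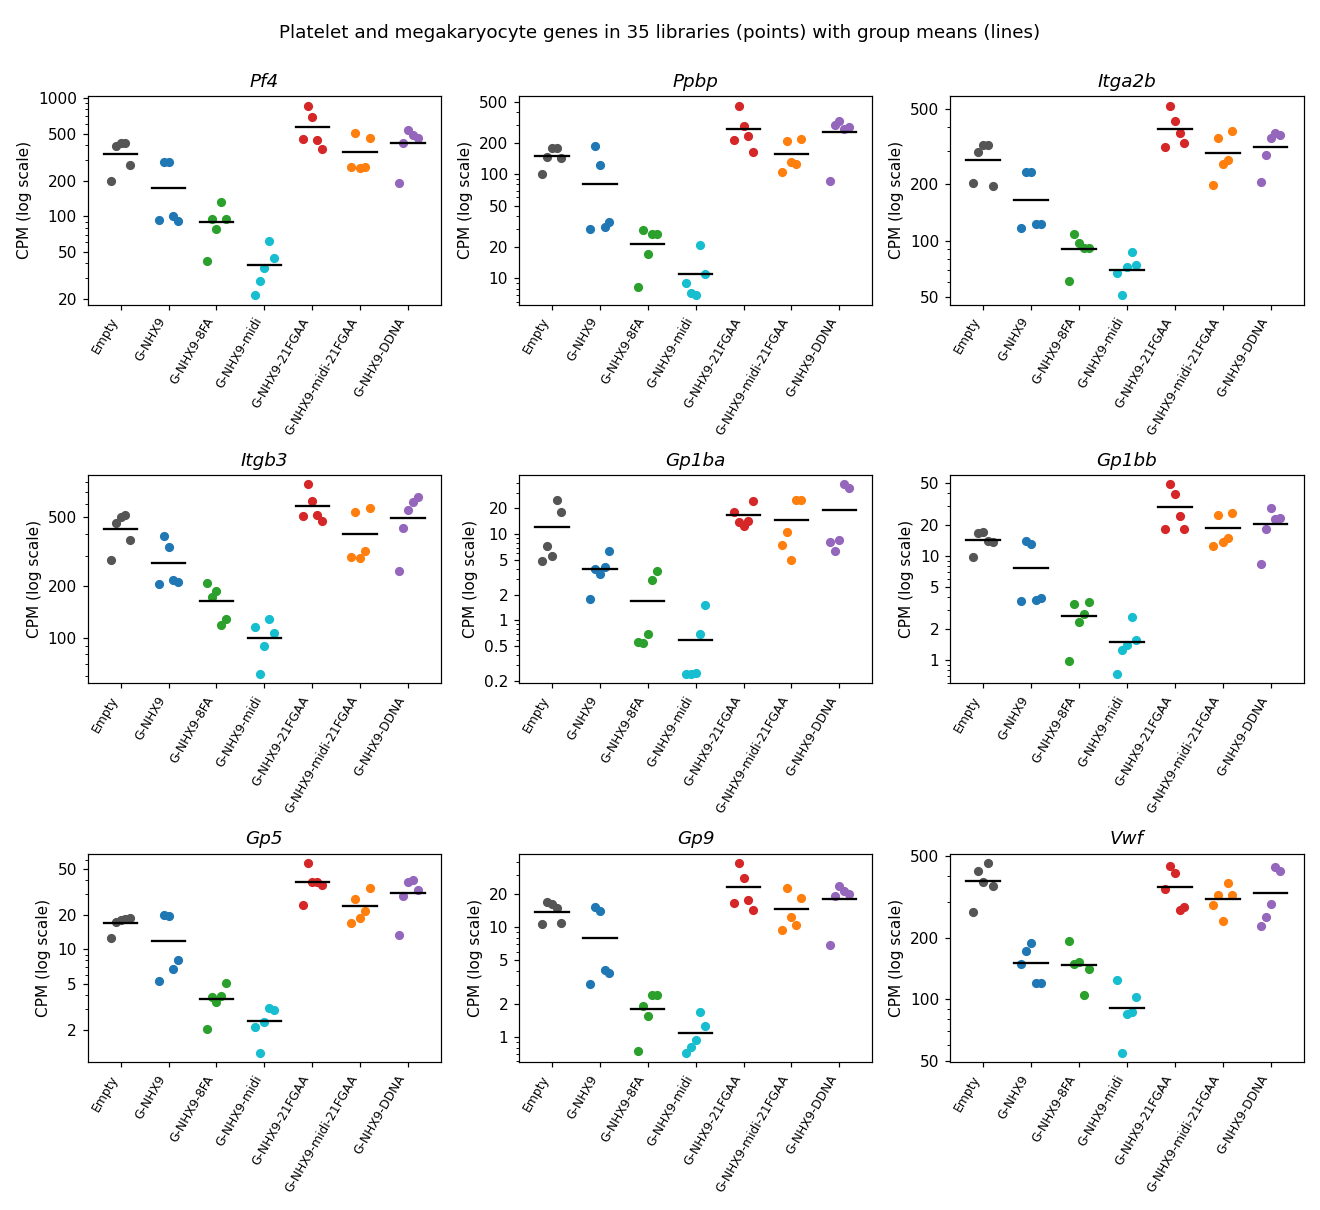
CPM (log axis) of each of the 9 genes in 35 libraries, points standing for libraries in replicate order within a group and lines for group means. All 9 genes are lowest in G-NHX9-midi, and in several panels G-NHX9 splits into libraries 2 and 3 above and 1, 4 and 5 below.

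Per kilobase of merged exons, which allows levels of different genes to be set side by side, Pf4 had the highest mean over the 35 libraries (391 CPM per kb), then Ppbp (125), Itgb3 (59.1), Itga2b (41.6), Vwf (15.6), Gp9 (13.2), Gp5 (8.34), Gp1bb (6.44) and Gp1ba (3.63). As counted, the granule chemokines thus stood above the receptor genes in level, and the GPIb-IX-V genes lowest. The place of Gp1bb is uncertain, because 91.1% of its exon bases also belong to exons of Sept5. Reads there may have been dropped, and its value per kilobase may be too low.

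The chemokine genes marked the ends of the range clearly. Pf4 (ENSMUSG00000029373.7), platelet factor 4, was at 200, 393, 415, 415 and 273 CPM in Empty libraries 1 to 5. In G-NHX9 it was at 92.4, 290, 286, 100 and 91.2 CPM, so libraries 2 and 3 reached into the Empty range while the other 3 lay below it. G-NHX9-8FA held 42.2, 95.2, 78.1, 133 and 95.6 CPM of Pf4. G-NHX9-midi held 21.5, 28.5, 36.4, 61.4 and 43.9 CPM, all 10 libraries of these 2 groups lying below the lowest Empty library. Pf4 read 447, 864, 697, 445 and 372 CPM in G-NHX9-21FGAA, with only library 5 inside the Empty range. It read 262, 509, 255, 260 and 462 CPM in G-NHX9-midi-21FGAA, overlapping Empty. In G-NHX9-DDNA it read 192, 420, 539, 485 and 463 CPM, with library 1 below every Empty library and the other 4 above.

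Ppbp (ENSMUSG00000029372.7), the precursor of beta-thromboglobulin, ran from 102 to 179 CPM in Empty. It was at 30.1, 188, 124, 30.9 and 35.2 CPM in G-NHX9, the same split of libraries 2 and 3 from the rest as for Pf4. Means were 21.6 ± 8.72 CPM in G-NHX9-8FA and 11 ± 5.81 in G-NHX9-midi, against 272 ± 114 in G-NHX9-21FGAA, 158 ± 52 in G-NHX9-midi-21FGAA and 254 ± 95.5 in G-NHX9-DDNA. The highest G-NHX9-8FA library (29 CPM) lay just under the lowest G-NHX9 library, the one gap between neighbours in the order of the groups. Library 1 of G-NHX9-DDNA, at 87.1 CPM, lay far below the other 4 (273 to 325).

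The integrin genes spanned less. Itga2b (ENSMUSG00000034664.13), the αIIb subunit, was at 203, 295, 320, 322 and 195 CPM in Empty and at 116, 232, 232, 122 and 122 CPM in G-NHX9. It ran from 61.2 to 108 CPM in G-NHX9-8FA and from 51.3 to 86.5 in G-NHX9-midi, ranges that overlap each other but not Empty. In the groups with the 21FGAA changes it ran from 312 to 520 CPM (G-NHX9-21FGAA) and from 196 to 382 (G-NHX9-midi-21FGAA). Itgb3 (ENSMUSG00000020689.4), the β3 subunit shared with integrin αVβ3, spanned much the same range. Its means were 425 ± 99.2 CPM in Empty, 272 ± 84.9 in G-NHX9, 163 ± 38.1 in G-NHX9-8FA and 100 ± 26.2 in G-NHX9-midi. Its mean in G-NHX9-midi-21FGAA, 401 ± 139 CPM, was a little under that of Empty, and the ranges overlapped. Each neighbour in the order of Itgb3 overlapped the next.

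The GPIb-IX-V genes had the lowest levels of the 9 as counted and spanned 16.5-fold (Gp5) to 32.6-fold (Gp1ba) over the groups. Gp5 (ENSMUSG00000047953.6), glycoprotein V, was tight in Empty, at 12.6, 17.4, 18, 18.3 and 18.7 CPM. In G-NHX9-21FGAA it was at 24.1, 56.3, 38.4, 38.9 and 36.3 CPM, all above Empty. In G-NHX9 it split again, with libraries 2 and 3 at 19.9 and 19.6 CPM above every Empty library and libraries 1, 4 and 5 at 5.25, 6.75 and 8.06 CPM below every one. In G-NHX9-8FA it ran from 2.03 to 5.07 CPM and in G-NHX9-midi from 1.26 to 3.1.

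Gp9 (ENSMUSG00000030054.4), glycoprotein IX, was at 14 ± 2.98 CPM in Empty, 8.09 ± 6.13 in G-NHX9, 1.8 ± 0.69 in G-NHX9-8FA and 1.08 ± 0.394 in G-NHX9-midi. Its highest mean was 23.2 ± 10.1 CPM in G-NHX9-21FGAA. Gp1bb (ENSMUSG00000050761.3), the β chain of GPIb, ran alongside it, from 1.5 ± 0.669 CPM in G-NHX9-midi through 14.1 ± 2.9 in Empty to 29.6 ± 13.6 in G-NHX9-21FGAA. Its neighbour Sept5, whose exons it shares, did not follow that course: Sept5 stood at 13.8 ± 4.49 CPM in Empty, 26.7 ± 10.3 in G-NHX9-8FA, 14.7 ± 6.9 in G-NHX9-midi and 19.4 ± 3.17 in G-NHX9-21FGAA. In G-NHX9-8FA against Empty, where Gp1bb fell, Sept5 was called higher (log2 fold change 0.96 ± 0.27, SE, adjusted p = 0.0079, edgeR).

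Gp1ba (ENSMUSG00000050675.7), the α chain that binds von Willebrand factor, behaved unlike the other 8 within groups. It was at 4.97, 7.42, 5.64, 24.9 and 18.2 CPM in Empty and at 8.06, 6.37, 8.69, 38.2 and 34.7 CPM in G-NHX9-DDNA. It read 7.46, 10.7, 5.05, 25.1 and 24.9 CPM in G-NHX9-midi-21FGAA. Libraries 4 and 5 stood above libraries 1 to 3 in each of these groups. The same held at lower levels in G-NHX9 (1.78, 3.98, 3.51, 4.13 and 6.35 CPM), G-NHX9-8FA (0.559, 0.549, 0.69, 2.93 and 3.73) and G-NHX9-midi (0.239, 0.24, 0.245, 0.695 and 1.52). G-NHX9-21FGAA was the exception, with 18.1 CPM in library 1 and 14.3 in library 4. Both late numbers lay above all early numbers in 6 of 7 groups for Gp1ba, in 3 of 7 for Gp5 and in 1 or 2 of 7 for each of the other 7 genes. Which isolation or transduction each number came from is not stated, and the part of such sets in the split was not tested. The SD of log2 deviations from the group mean was 1.02 for Gp1ba, against 0.34 for Vwf and 0.37 for Itga2b.

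**Figure D2:**
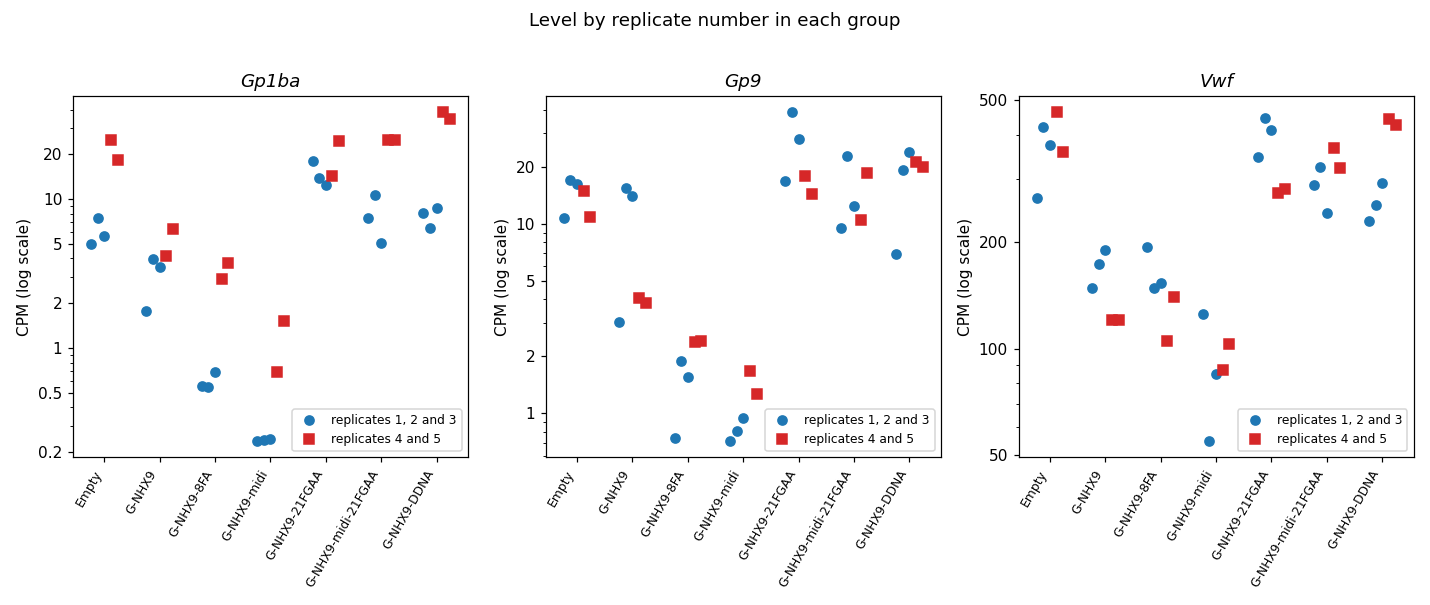
CPM (log axis) of Gp1ba, Gp9 and Vwf by group, circles for replicates 1 to 3 and squares for replicates 4 and 5. The squares lie above the circles in 6 of 7 groups for Gp1ba, in 2 of 7 for Gp9 and in 1 of 7 for Vwf.

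Vwf (ENSMUSG00000001930.17) departed from the rest in its order over groups. It was at 266, 421, 375, 462 and 358 CPM in Empty and at 148, 173, 189, 120 and 120 CPM in G-NHX9, with no overlap. G-NHX9-8FA gave 193, 148, 153, 105 and 140 CPM, level with G-NHX9, whereas 6 of the other genes were lower in G-NHX9-8FA. In G-NHX9-midi it was at 125, 55, 84.8, 86.8 and 103 CPM. In G-NHX9-21FGAA (274 to 446 CPM), G-NHX9-midi-21FGAA (241 to 368) and G-NHX9-DDNA (229 to 442) it overlapped Empty, and all 3 means lay under the Empty mean of 376 ± 73.8 CPM.

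The first question was how each construct differed from the empty vector. Tests below are edgeR quasi-likelihood tests over all 35 libraries, adjusted by Benjamini-Hochberg over the 17166 genes, and changes passed at an adjusted p under 0.05. The 6 comparisons share the Empty libraries, so they are not independent of each other.

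In G-NHX9, 5 of the 9 genes fell against Empty (Pf4, Itga2b, Itgb3, Gp1ba and Vwf) and none rose, where 32.1% of all genes tested changed in either direction. The median log2 fold change was -0.87 over the 9 genes and 0.01 over all genes tested. Vwf moved most clearly, 2.51-fold lower (log2 fold change -1.33 ± 0.21, SE, adjusted p = 6.4e-06), with every G-NHX9 library below every Empty library. Gp1ba was 3.08-fold lower (-1.62 ± 0.60, adjusted p = 0.035), lower than all Empty libraries in 4 of 5. It differed by only -0.43 (adjusted p = 0.66) in 8-week libraries, which leave out Empty replicates 4 and 5, the Empty libraries with the highest Gp1ba levels. Pf4 (-0.98 ± 0.36, adjusted p = 0.033), Itga2b (-0.69 ± 0.22, adjusted p = 0.014) and Itgb3 (-0.64 ± 0.25, adjusted p = 0.047) were lower than all of Empty in 3 of 5 libraries each. Ppbp, Gp1bb, Gp5 and Gp9 did not pass, with log2 fold changes of -0.87, -0.88, -0.51 and -0.79 and adjusted p from 0.081 to 0.23. The count rests on single libraries. It was 8 with the replicate number as a block (adding Ppbp, -1.06, adjusted p = 0.022, Gp1bb, adjusted p = 0.007, and Gp9, -0.95, adjusted p = 0.012), 7 without G-NHX9 replicate 2, 6 without G-NHX9 replicate 3, 3 without each of Empty replicates 2 and 3 and G-NHX9 replicate 5, 2 without each of Empty replicate 4 and G-NHX9 replicates 1 and 4, and 1, Vwf, in 8-week libraries only or without TMM.

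In G-NHX9-8FA all 9 genes fell against Empty, where 26.6% of all genes changed, and for each gene every G-NHX9-8FA library lay below every Empty library. The median log2 fold change was -2.21. Gp9 fell most, 7.8-fold (-2.96 ± 0.43, adjusted p = 2.5e-06), followed by Gp1ba (7.41-fold) and Ppbp (6.94-fold). The smallest falls were those of Vwf, 2.54-fold (-1.35 ± 0.21, adjusted p = 7e-06), and Itgb3, 2.61-fold (-1.39 ± 0.25, adjusted p = 9.7e-05).

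G-NHX9-midi showed the deepest falls: all 9 genes against Empty, with a median log2 fold change of -3.15 and no overlap for any of them, where 40.5% of all genes changed. Gp1ba was 20.3-fold lower (-4.34 ± 0.70, adjusted p = 6.7e-06), Ppbp 13.6-fold (-3.76 ± 0.48, adjusted p = 1.3e-07) and Gp9 12.9-fold (-3.69 ± 0.45, adjusted p = 4.7e-08). Pf4 was 8.85-fold lower. Itga2b, at 3.8-fold, and Vwf, at 4.13-fold, were the least lowered. For both constructs the count was 9 in every alternative run. In 8-week libraries only, the Gp1ba change shrank to -1.88 (adjusted p = 0.04) in G-NHX9-8FA and to -3.34 (adjusted p = 0.00039) in G-NHX9-midi, and without G-NHX9-midi replicate 5 the latter was -5.12.

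In G-NHX9-21FGAA the 2 genes that passed were higher, a share no greater than that of all genes. Gp5 rose 2.28-fold against Empty (log2 fold change 1.19 ± 0.31, adjusted p = 0.0049) and Gp1bb 2.09-fold (1.06 ± 0.38, adjusted p = 0.036), both without overlap, so 2 of 9 changed where 27.1% of all genes did. The other 7 did not pass. Their log2 fold changes ran up to 0.86 for Ppbp, with Vwf at -0.10 (95% interval -0.51 to 0.32). The Gp5 call held without each single library, while that of Gp1bb was lost without Empty replicate 1, 4 or 5 or G-NHX9-21FGAA replicate 2 or 3. The count was 5 without TMM, 6 with only these 2 groups in the fit and 1 in 8-week libraries.

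In G-NHX9-midi-21FGAA 0 of 9 genes changed against Empty by edgeR (16.9% of all genes did), 0 had an unadjusted p under 0.05, and DESeq2 called 0. The log2 fold changes lay between -0.29 (Vwf) and 0.49 (Gp5), and intervals were wide for some genes. That of Gp1ba ran from -0.89 to 1.44, so changes within that interval were not excluded. G-NHX9-DDNA likewise had 0 of 9 by edgeR (17.2% of all genes), with 1, Gp5, at an unadjusted p under 0.05. Gp5 was 1.81-fold higher (0.85 ± 0.31, adjusted p = 0.055), and it passed with the replicate number as a block (0.80, adjusted p = 0.017), with DESeq2 (0.86, adjusted p = 0.036) and without G-NHX9-DDNA replicate 1 (1.04, adjusted p = 0.022).

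**Figure D3:**
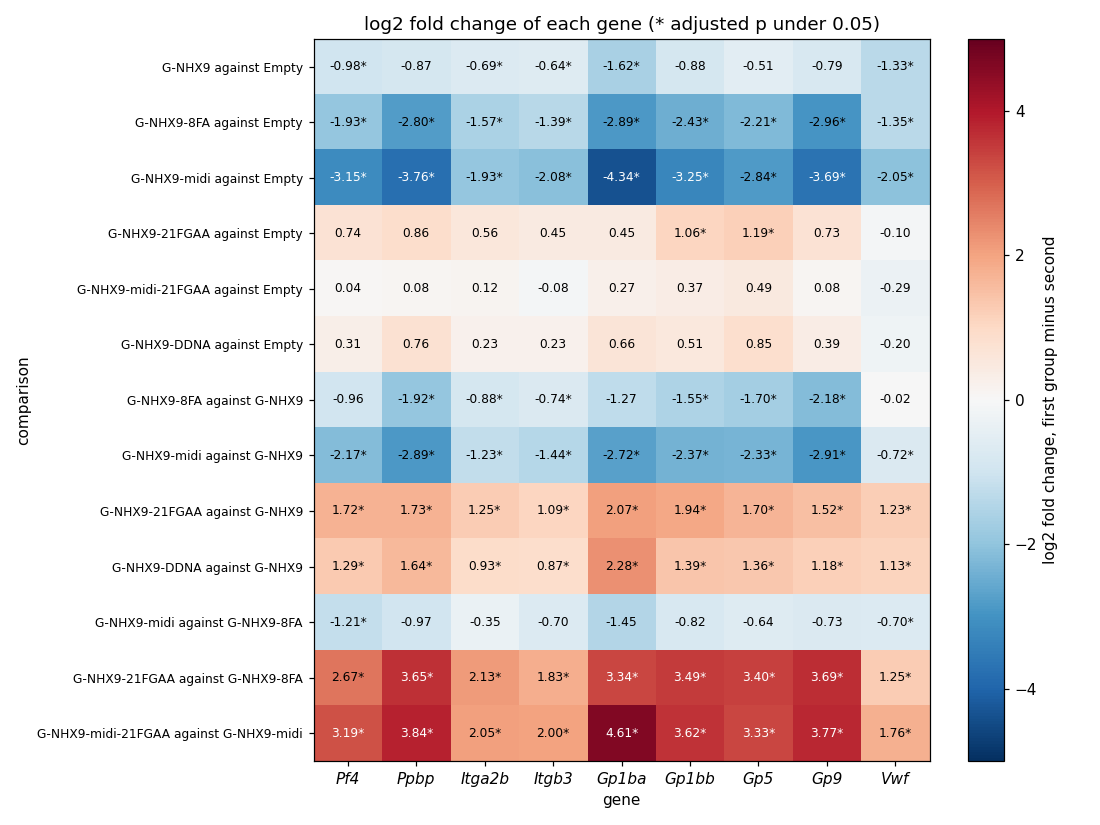
log2 fold change of each gene (columns) in the 13 comparisons (rows), first group minus second, with an asterisk at an adjusted p under 0.05. All 9 genes are blue in G-NHX9-8FA and G-NHX9-midi against Empty and red in the last 2 rows, and Vwf is near 0 in G-NHX9-8FA against G-NHX9 (-0.02).

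The next question was how the changed constructs differed from the intact fusion. These 4 comparisons share the G-NHX9 libraries. G-NHX9-8FA was lower than G-NHX9 in 6 of 9 genes (Ppbp, Itga2b, Itgb3, Gp1bb, Gp5 and Gp9), where 14.5% of all genes changed, and 5 of them did not overlap. Gp9 was 4.52-fold lower (-2.18 ± 0.42, adjusted p = 0.00044) and Ppbp 3.79-fold (-1.92 ± 0.44, adjusted p = 0.0031). Vwf differed by -0.02 ± 0.20, with a 95% interval from -0.43 to 0.40. The Itgb3 call was lost without each of G-NHX9 replicates 2 and 3 and G-NHX9-8FA replicates 2, 4 and 5. Pf4 (-0.96, adjusted p = 0.068) and Gp1ba (-1.27, adjusted p = 0.18) did not pass. G-NHX9-midi was lower than G-NHX9 in all 9 genes, where 19.7% of all genes changed, and 8 did not overlap. Ppbp was 7.4-fold lower (-2.89 ± 0.46, adjusted p = 2.1e-05), and Vwf 1.64-fold (-0.72 ± 0.20, adjusted p = 0.011). Gp1ba changed by -2.72 and by -3.50 without G-NHX9-midi replicate 5.

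Both constructs at the other end were higher than G-NHX9 throughout. In G-NHX9-21FGAA all 9 genes rose, where 17.2% of all genes changed, and 7 did not overlap. The rises ran from 2.13-fold for Itgb3 (1.09 ± 0.25, adjusted p = 0.0019) to 4.21-fold for Gp1ba (2.07 ± 0.60, adjusted p = 0.013), with Pf4 at 3.28-fold (1.72 ± 0.36, adjusted p = 0.00072). Ppbp rose by 1.73, and by 2.33 without G-NHX9 replicate 2. In G-NHX9-DDNA all 9 rose as well, where 22.1% of all genes changed, but only Gp1ba and Vwf did not overlap. In the other 7 genes 4 of 5 G-NHX9-DDNA libraries lay above every G-NHX9 library and library 1 did not. In each of these genes library 1 of G-NHX9-DDNA was still above library 1 of G-NHX9. The values were 192 against 92.4 CPM for Pf4, 243 against 206 for Itgb3 and 6.94 against 3.03 for Gp9. Gp1ba rose 4.85-fold (2.28 ± 0.60, adjusted p = 0.0055) and Gp9 2.26-fold (1.18 ± 0.39, adjusted p = 0.026). The Gp9 call was lost without each of G-NHX9 replicates 1, 4 and 5 and G-NHX9-DDNA replicates 3 and 4.

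Constructs that differ only in the NUP98 part were also compared directly. G-NHX9-midi against G-NHX9-8FA had the fewest changed genes of the 13 comparisons. Pf4 (2.31-fold, -1.21 ± 0.36, adjusted p = 0.048) and Vwf (1.62-fold, -0.70 ± 0.20, adjusted p = 0.043) were lower in G-NHX9-midi, so 2 of 9 changed where 4.25% of all genes did, and in none of the 9 were the groups apart. Both calls were marginal. The count was 0 with only these 2 groups in the fit and 0 without each of G-NHX9-8FA replicates 2, 3 and 5 and G-NHX9-midi replicates 2 and 3. It was 1 without each of the other 5 libraries. Itga2b differed by -0.35 ± 0.22 (95% interval -0.80 to 0.09).

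The 21FGAA changes separated the groups far more. G-NHX9-21FGAA was higher than G-NHX9-8FA in all 9 genes, where 32.4% of all genes changed, with a median log2 fold change of 3.34 and no overlap for any gene. Gp9 was 12.9-fold higher (3.69 ± 0.43, adjusted p = 5.6e-08), Ppbp 12.6-fold (3.65 ± 0.48, adjusted p = 3.5e-07) and Vwf 2.38-fold (1.25 ± 0.21, adjusted p = 1.6e-05). On the shortened NUP98 part, G-NHX9-midi-21FGAA was higher than G-NHX9-midi in all 9, where 43.2% of all genes changed, again with no overlap and a median of 3.33. Gp1ba was 24.5-fold higher (4.61 ± 0.70, adjusted p = 2.3e-06), Ppbp 14.4-fold (3.84 ± 0.48, adjusted p = 7.4e-08), and Vwf 3.39-fold (1.76 ± 0.21, adjusted p = 2.5e-08). Without G-NHX9-midi replicate 5 the Gp1ba change was 5.39. Both counts were 9 in every alternative run.

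Within groups, most of the genes moved together from library to library. Deviations of log2 level from the group mean over the 35 libraries gave Pearson r of 0.86 to 0.97 among Pf4, Ppbp, Itga2b, Gp1bb, Gp5 and Gp9, a description only, as the genes share libraries, sequencing depth and scaling. Itgb3 followed these 6 less closely (0.60 to 0.79), Vwf less still (0.31 to 0.53), and Gp1ba least (0.28 to 0.44). Vwf was closest to Itgb3 (0.78). The libraries that stood out did so in many of the genes at once. G-NHX9 replicates 2 and 3 were above their group mean in 9 and 8 of the 9 genes, by 0.83 and 0.71 on average on the log2 scale. G-NHX9-DDNA replicate 1 was below in all 9, by 0.98 on average, and Empty replicate 1 was below in all 9, by 0.54 on average. Replicate 1 lay below the group mean on average in every group. Its mean deviation was -0.69 in both G-NHX9 and G-NHX9-8FA, -0.45 in G-NHX9-midi-21FGAA, and -0.27 in both G-NHX9-21FGAA and G-NHX9-midi. The part of the replicate number in this was not tested.

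The levels of each gene were also set against those of 12766 others whose mean reached 1 CPM, and those with the highest Pearson r of log2 CPM over the 35 libraries, up to 2 for each gene, are given here as a description. Gp6, the platelet collagen receptor, was among the nearest 2 for Pf4, Ppbp, Gp1bb and Gp9, with r of 0.98 to 0.99. Tspan9, a tetraspanin, was so for Ppbp, Itga2b and Gp9. Parvb, a parvin of integrin adhesions, was nearest to Gp1ba (r = 0.97). Within groups, where the other 8 genes followed Gp1ba with r of 0.20 to 0.44, the deviations of Parvb followed it with r of 0.91. Pros1, the anticoagulant protein S, and Itga2, the α2 integrin, were nearest to Vwf (0.94 and 0.93), and Daam1 and Fam65c to Itgb3 (0.95 each). Slamf1 was the nearest to Pf4 (0.99), Prkcq the second to Itga2b (0.98), Alox12 the second to Gp1bb (0.98), and Mfsd2b and Src the nearest to Gp5 (0.99 and 0.98).

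Lists of other genes were compared with Empty in the same way, and their counts are read against the shares of all genes tested that changed there: 32.1% in G-NHX9, 26.6% in G-NHX9-8FA, 40.5% in G-NHX9-midi and 27.1% in G-NHX9-21FGAA. Of 14 other platelet receptors and surface proteins, 9 fell and 0 rose in G-NHX9-8FA (26.6% of all genes changed), and 11 fell and 0 rose in G-NHX9-midi (40.5%). In G-NHX9-21FGAA 4 rose and 0 fell, a share near that of all genes (27.1%). In G-NHX9 5 fell and 2 rose (32.1%). Gp6 went from 14.4 ± 3.44 CPM in Empty to 1.37 ± 0.47 in G-NHX9-midi (10.5-fold lower, adjusted p = 6.2e-08, edgeR). F2rl3, the thrombin receptor PAR4, was one that rose in G-NHX9-21FGAA (4.05-fold, adjusted p = 2.9e-05), and it also rose in G-NHX9 (3.88 ± 0.697 CPM in Empty, 8.47 in G-NHX9, adjusted p = 0.0054).

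Genes of granules and of the platelet cytoskeleton were more mixed. Of 11 granule genes tested, 5 fell and 2 rose in G-NHX9-midi against Empty (40.5% of all genes), and 6 rose and 1 fell in G-NHX9-21FGAA (27.1%). Mmrn1, the granule protein multimerin, fell 8.41-fold in G-NHX9-midi (adjusted p = 1.2e-07), but Thbs1, thrombospondin, and Srgn, serglycin, which other myeloid cells make too, rose. Of 12 cytoskeletal and signalling genes, 6 fell and 1 rose in G-NHX9-midi (40.5%). Tubb1, the β1-tubulin of platelets, fell 23.3-fold there (9.9 ± 3.01 to 0.423 ± 0.125 CPM, adjusted p = 1e-08) and Alox12, platelet 12-lipoxygenase, 17.5-fold (adjusted p = 2.8e-08). Rasgrp2, an activator of Rap1 in platelets, rose 1.86-fold in G-NHX9 (adjusted p = 4.6e-05). Of 4 other integrin subunits, Itgav, partner of Itgb3 in αVβ3, fell 1.69-fold in G-NHX9-midi (112 ± 12.1 to 66 ± 7.91 CPM, adjusted p = 4e-06), a smaller step than the 4.24-fold of Itgb3, and Itgb1 and Itga5 also fell.

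Transcription factors of the lineage split. Of 8, 3 rose and 3 fell in both G-NHX9-8FA (26.6% of all genes changed) and G-NHX9-midi (40.5%) against Empty, and 7 rose and 0 fell in G-NHX9-21FGAA (27.1%). In G-NHX9, where 5 of the 9 platelet genes fell, 3 of the factors rose and 0 fell, a share near that of all genes (32.1%). Their median log2 fold change there was 0.35. Gata1 was at 19.8 ± 3.58 CPM in Empty, 5.97 ± 1.04 in G-NHX9-8FA and 4.16 ± 1.31 in G-NHX9-midi. It was at 46.6 ± 9.25 CPM in G-NHX9-21FGAA, and over these groups its order was that of most of the platelet genes. It parted from them in G-NHX9-midi-21FGAA (41.4 ± 13.8 CPM) and G-NHX9-DDNA (34.5 ± 7.38), with means above Empty where 0 of the 9 platelet genes changed. The rise of Gata1 in G-NHX9-DDNA passed (1.74-fold, adjusted p = 0.011, edgeR). Gata1 fell 4.75-fold in G-NHX9-midi (adjusted p = 2.4e-09), and Zfpm1, which encodes FOG1, and Gfi1b fell there too. Fli1, Nfe2 and Mef2c went the other way, with Fli1 rising from 86.3 ± 11.6 CPM in Empty to 118 ± 16.2 in G-NHX9-midi (adjusted p = 0.00066). Gata1 is also expressed by erythroid cells, mast cells and eosinophils.

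Markers of some other lineages fell where the 9 genes fell most, but they did not follow the 9 genes in every group. In G-NHX9-midi-21FGAA against Empty 0 of the 9 genes changed (16.9% of all genes did). There 6 of 8 erythroid and 5 of 12 mast cell and basophil genes rose, and 0 of 4 eosinophil genes changed. The summed level of 12 mast cell and basophil genes ran from 1460 to 3840 CPM in Empty, 842 to 1130 in G-NHX9, 727 to 1070 in G-NHX9-8FA, 569 to 1040 in G-NHX9-midi and 3670 to 5160 in G-NHX9-21FGAA. Against Empty, 8 of the 12 fell in G-NHX9 (32.1% of all genes changed), 9 in G-NHX9-8FA (26.6%) and 10 in G-NHX9-midi (40.5%), and 5 rose in G-NHX9-21FGAA (27.1%). Of 8 erythroid genes, 8 fell in G-NHX9-8FA (26.6%) and 7 in G-NHX9-midi (40.5%), with median log2 fold changes of -3.82 and -4.24, and the median in G-NHX9 was -0.28. Their sum was 359 ± 170 CPM in Empty, 312 ± 98.2 in G-NHX9, 50.2 ± 17.3 in G-NHX9-8FA, 58.1 ± 13.4 in G-NHX9-midi and 864 ± 521 in G-NHX9-21FGAA. All 4 eosinophil genes fell in G-NHX9-8FA (26.6%) and in G-NHX9-midi (40.5%), from a sum of 1380 ± 203 CPM in Empty to 121 ± 83.9 and 55.9 ± 29.5. None of the genes of these 3 lists was at the floor in all libraries of a group.

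Neutrophil genes, summed over 8, stood at 9550 ± 1660 CPM in Empty, 24300 ± 7970 in G-NHX9-8FA and 15800 ± 4690 in G-NHX9-midi. They stood at 15600 ± 3550 CPM in G-NHX9-DDNA, where the 9 genes were not lowered. The means were a little above Empty in G-NHX9 (10900 ± 1920 CPM) and G-NHX9-21FGAA (10500 ± 2290), and below it in G-NHX9-midi-21FGAA (8360 ± 2940). Against Empty 4 of the 8 rose and 0 fell in G-NHX9-8FA (26.6% of all genes changed), 2 rose and 2 fell in G-NHX9-midi (40.5%), and 4 rose and 1 fell in G-NHX9-DDNA (17.2%). Of 8 macrophage genes, 2 fell in G-NHX9-8FA, near the share of all genes (26.6%), 5 fell in G-NHX9-midi (40.5%), 4 fell in G-NHX9-21FGAA (27.1%), and 3 rose and 2 fell in G-NHX9 (32.1%). Stem and progenitor genes, 7 in all, summed to 164 ± 25.3 CPM in Empty, 345 ± 31.9 in G-NHX9 and 144 ± 32.4 in G-NHX9-midi. The sum was 417 ± 77.9 CPM in G-NHX9-21FGAA, the highest, and 320 ± 107 in G-NHX9-midi-21FGAA. Gata2, also in the mast cell and basophil list, made up 95.6 ± 25.1 CPM of the Empty sum. Against Empty 4 rose and 0 fell in G-NHX9 (32.1%) and in G-NHX9-21FGAA (27.1%), and 3 rose and 2 fell in G-NHX9-midi (40.5%). The part that these shifts in the mixture of cells have in the falls of the platelet genes was not tested. The 8 endothelial genes, of interest for Vwf, summed to 76.1 ± 16.5 CPM in Empty, 64 ± 8.14 in G-NHX9 and 53 ± 3.08 in G-NHX9-midi, and 6 of the 8 passed the filter. Most of the sum was Erg, which blood progenitors also express, and Kdr, which stood at 52.5 ± 14.9 CPM in Empty, 16.7 ± 5.93 in G-NHX9, 14.9 ± 3.68 in G-NHX9-midi and 30.1 ± 9.45 in G-NHX9-21FGAA. Against Empty, 3 endothelial genes rose and 1 fell in G-NHX9 (32.1% of all genes changed), 2 rose and 3 fell in G-NHX9-midi (40.5%), and 4 rose and 1 fell in G-NHX9-21FGAA (27.1%). Tek was at 0.392 ± 0.196 CPM in Empty, 0.159 ± 0.0509 in G-NHX9-midi and 3.53 ± 1.93 in G-NHX9-21FGAA. Emcn was at 0.0107 CPM in Empty, at or under the floor of 3 counts, and at 0.411 ± 0.0877 in G-NHX9, 0.506 ± 0.236 in G-NHX9-midi and 0.812 ± 0.194 in G-NHX9-21FGAA. Tie1 was at 1.8 ± 0.498 CPM in Empty, 0.408 ± 0.178 in G-NHX9-midi and 2.95 ± 1.13 in G-NHX9-21FGAA. Cldn5 was at 0 in all libraries of 5 groups, and Cdh5 did not exceed 0.127 CPM in any library. The part of cells expressing these genes in the Vwf result was not tested.

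**Figure D4:**
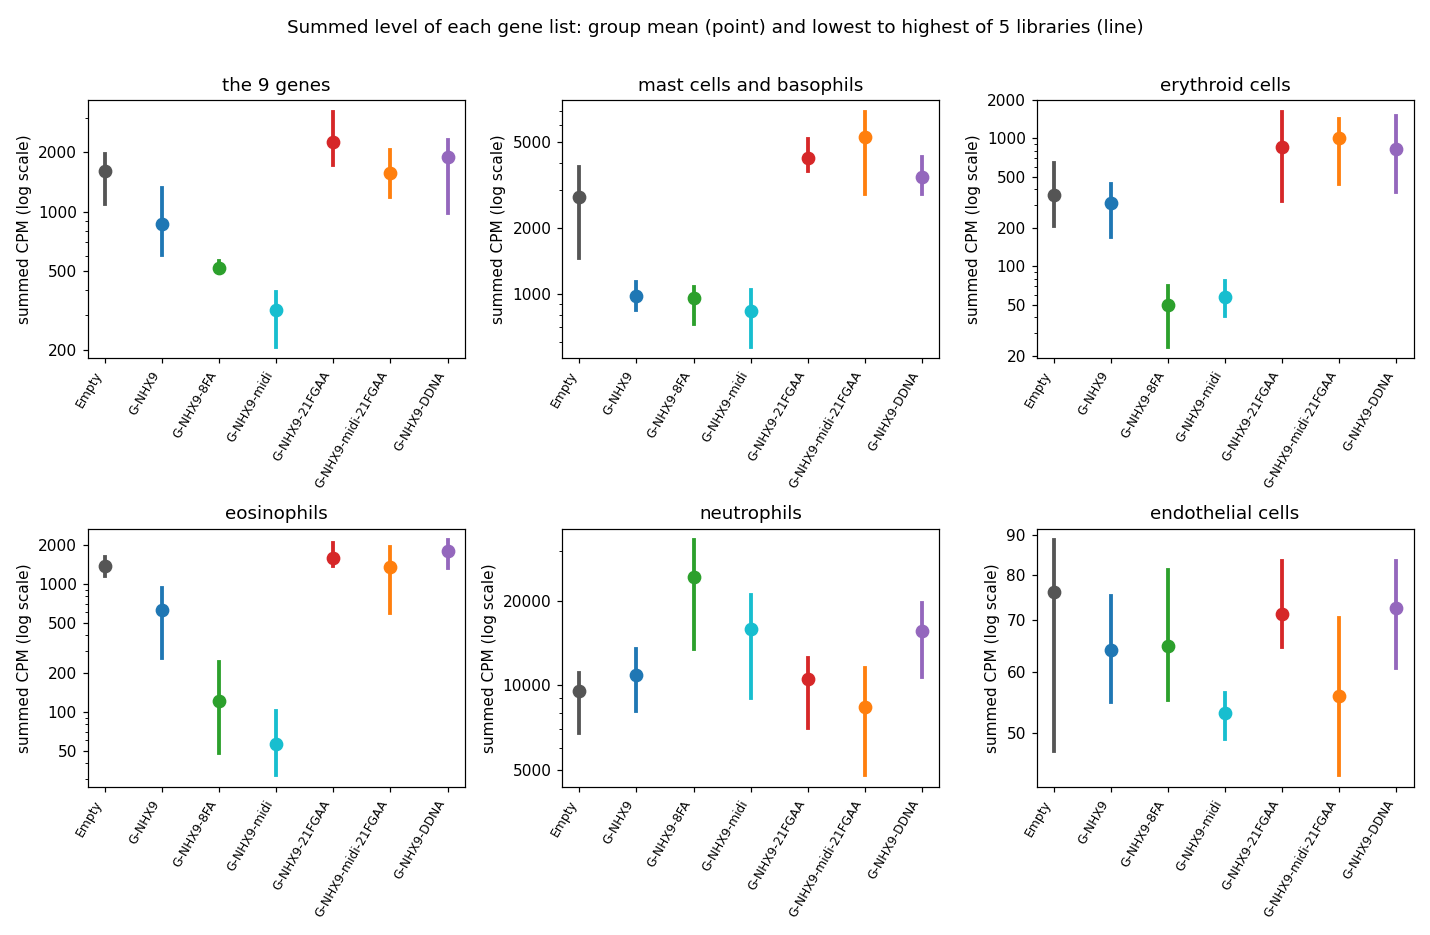
Summed CPM (log axis) of the 9 genes and of 5 marker lists by group, points for means and lines from the lowest to the highest of 5 libraries. Mast cell and basophil, erythroid and eosinophil sums are low in G-NHX9-8FA and G-NHX9-midi as the 9 genes are. Neutrophil sums are above Empty on average in every construct group but G-NHX9-midi-21FGAA, and highest in G-NHX9-8FA. Endothelial sums stay between 44.1 and 88.6.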

How the data were processed

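RNA was sequenced from 35 libraries, 5 in each of 7 groups taken from the sample titles. The authors prepared stranded total RNA libraries and deposited 1 table of raw read counts per gene. Their notes name STAR 2.7.0d, HTSeq 0.11.2, DESeq2 and mm10, with no role or order. Strand setting and annotation are not given in the sources used here, so reads of overlapping genes may have been split or dropped. From the counts, edgeR 4.0.16 (R 4.3.3) filtered genes by filterByExpr, scaled by TMM, fitted 1 mean per group over all libraries (28 residual degrees of freedom) and tested 13 contrasts by quasi-likelihood with Benjamini-Hochberg adjustment at 0.05 over 17166 genes. SE is the log2 fold change divided by the square root of F. Overlap compares the lowest and highest library.

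On simulated counts for G-NHX9 against Empty (16870 genes, 200 changed), 82% of 2-fold and 97% of 4-fold changes were recovered with 4 false calls. The simulated libraries were drawn independently of each other from the fitted model, without deviations shared by same-numbered libraries. In the real comparison 32.1% of genes changed, so these rates may not carry over. Depth, 31559914 to 75810659 counts, puts the floor of 3 counts at 0.0382 to 0.0996 CPM, counting error only.

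The 9 genes and all lists were chosen with earlier results of these data known. Other genes named are, per list and comparison with Empty, the 2 largest changes past the threshold with groups apart, and the 2 most correlated genes per member. One gene that these rules name is not reported here. Others (Sept5, Hoxa9, and genes named in contrast to their list) were chosen after their values were seen. Same-numbered libraries of different groups deviated together with mean r = 0.232 (-0.0571 for different numbers), and every pair exceeded 0.1 in 5 of 13 comparisons: G-NHX9, G-NHX9-midi-21FGAA and G-NHX9-DDNA against Empty, and G-NHX9-21FGAA and G-NHX9-DDNA against G-NHX9. There the number may pair libraries, but the main tests, with their SE and p-values, did not use it. It entered only the replicate-block runs. This pairing comes from the data, not the labels. No 2 libraries of a group agreed within counting noise (lowest chi-square per degree of freedom 23.2). Alternatives were no TMM, RLE factors, other filters, DESeq2 1.42.0, 2 groups only, the replicate block, each library left out and, chosen after seeing the data, 8-week libraries only.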

Additional observations from a re-analysis of the deposited data

Results flagged for a closer look

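Of 63 sets of 5 libraries (9 genes in 7 groups), 3 had a library farther from the rest than Dixon's 95% value of 0.71 allows, and about 1 in 20 would be so by chance. Ppbp in G-NHX9-DDNA replicate 1 was at 87.1 CPM, the next library at 273. Gp9 in the same library was at 6.94 CPM, the next at 19.3. Gp5 in Empty replicate 1 was at 12.6 CPM, the next at 17.4. In both libraries all 9 genes lay below their group mean, so the 3 cases come from 2 libraries. Both carry replicate number 1, which lay below the group mean on average in every group.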

How the results depend on the processing

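With the count of changed genes among the 9 as the result, 6 comparisons (G-NHX9-8FA and G-NHX9-midi against Empty, G-NHX9-midi against G-NHX9, G-NHX9-21FGAA against G-NHX9-8FA, G-NHX9-midi-21FGAA against G-NHX9-midi, and G-NHX9-midi-21FGAA against Empty) gave the same count in every alternative. G-NHX9-8FA against G-NHX9 gave 5 to 8, G-NHX9-21FGAA against G-NHX9 8 or 9, and G-NHX9-DDNA against G-NHX9 7 to 9. G-NHX9 against Empty, 5 as reported, gave 1 without TMM and 1 in 8-week libraries only, 8 with the replicate block, and 2 to 7 with single libraries left out. G-NHX9-21FGAA against Empty, 2 as reported, gave 5 without TMM, 5 with the replicate block, 6 with 2 groups only, 1 in 8-week libraries only and 1 to 3 with single libraries left out. G-NHX9-DDNA against Empty, 0 as reported, gave 1 (Gp5) without TMM, at a mean of at least 1 CPM, with the replicate block, with 2 groups only and with DESeq2, and 0 to 1 with single libraries left out. G-NHX9-midi against G-NHX9-8FA, 2 as reported, gave 1 with no filter, 1 in 8-week libraries only, 0 with 2 groups only, 3 with the replicate block and 0 to 1 with single libraries left out. The causes of these moves were not tested. Dropping TMM moved the median of all genes by up to 0.19 on the log2 scale (G-NHX9 against Empty). The replicate numbers are not tied to animals in the labels, and beyond the counts given the block added Pf4 and Gp1ba in G-NHX9-8FA against G-NHX9.

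Of 2106 alternative values of single genes, 1978 kept direction and side of the threshold, 68 lost and 41 gained the call, and 19 changed sign, none of them called. Vwf in G-NHX9-21FGAA against Empty was 0.08 without TMM and 0.00 in 8-week libraries, and -0.18 to 0.00 with single libraries left out. In G-NHX9-midi-21FGAA against Empty, Itgb3 was 0.06 without TMM. With single libraries left out it was -0.22 to 0.02, Pf4 -0.13 to 0.15, Ppbp -0.04 to 0.21 and Gp9 -0.13 to 0.21. Vwf in G-NHX9-8FA against G-NHX9 was -0.14 to 0.08. Depth limits Gp1ba most: its lowest count, 8, was the lowest of the 9 genes.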
